A study of Caenorhabditis elegans with 20 samples.

Results

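The 38 genes described here build and maintain the cilium, the sensory ending at the tip of the dendrite of certain neurons of *Caenorhabditis elegans*. They were chosen by name as components of intraflagellar transport, its motors and kinases, the BBSome, the transition zone, the ciliary rootlet and the transcription factor DAF-19. A gene was taken as measured where a probe set of the array carries its symbol and no other. By this rule 38 of 38 genes were measured, each by 1 probe set, out of 25478 genes measured in this way and 29317 probe sets in all.

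Whole worms were profiled on an Affymetrix gene array in 4 groups of 5 arrays, the product of a genotype and a treatment. The mutant groups were *ahr-1(ju145)*, strain CZ2485, with 100 µM curcumin or with 0.1% DMSO, and the other groups were the wild-type strain N2 with the same curcumin dose or the same DMSO vehicle. All worms were kept on their plates from the egg stage and harvested on day 3, so each array shows RNA of a pool of animals and of all their tissues. The allele *ju145* is a point mutation in the gene of the aryl hydrocarbon receptor AHR-1, carried in every cell of the mutant. The statistics rest on 19 arrays, with 4 of curcumin-treated *ahr-1(ju145)*, because replicate 5 of that group was dropped for its quality by the study's methods.

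In *C. elegans* the only ciliated cells are sensory neurons, which use cilia to sense odours, soluble chemicals, temperature and touch. Cilia are built from their tips: trains of IFT-B and IFT-A particles are carried outward by kinesin motors and back by dynein, the BBSome links the particles and membrane cargo, and the transition zone gates the base. Most of these genes share an RFX-type transcription factor, DAF-19, and mutants of many of them fail to take up dye into the sensory neurons. The names *dyf*, *che* and *osm* stand for defects in dye filling, in chemotaxis and in osmotic avoidance. AHR-1, for its part, is a transcription factor known in the worm for the fate of particular neurons. In RNA of whole worms, fewer cells of a type and less RNA per cell cannot be told apart.

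None of the 38 cilium genes passed limma's test in any comparison, at a Benjamini-Hochberg adjusted p under 0.1 over all 29317 probe sets. Among all probe sets, 1.81% passed for *ahr-1(ju145)* against wild-type under DMSO, 0.553% for the same contrast under curcumin, 0.143% for curcumin against DMSO in wild-type, 0.0648% for curcumin in *ahr-1(ju145)* and 0% for the interaction of genotype and curcumin. The smallest adjusted p of a cilium gene was 0.143, 0.263, 0.651, 0.58 and 1 in these 5 comparisons, in the same order. With shares this low among all probe sets, a count of 0 among 38 genes is close to the background.

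At an unadjusted p under 0.05 a few cilium genes were listed in each comparison. For 38 genes most of these counts were close to the shares of all probe sets given beside them. No count was tested against its share. Under DMSO, 5 of 38 lay lower in *ahr-1(ju145)* than in wild-type (*osm-5*, *dyf-1*, *dyf-5*, *dyf-18* and *nphp-1*) and 1 lay higher (*mksr-2*), where 5.64% of all probe sets lay lower and 5.51% higher. Under curcumin, 3 lay lower in *ahr-1(ju145)* (*osm-5*, *daf-10* and *klp-11*) and 1 higher (*che-3*), against 4.54% and 4.29% of all probe sets. Curcumin in wild-type gave 3 lower (*ift-81*, *osm-12* and *nphp-1*) and 0 higher, against 3.3% and 3.19%. In *ahr-1(ju145)* it gave 1 lower (*klp-11*) and 1 higher (*che-3*), against 3.86% and 3.58%. The interaction gave 2 (*dyf-6* and *che-3*), against 3.36%. Of all these, *osm-5* alone was listed in both genotype comparisons, which share no array, and no gene was listed in the same direction in both curcumin comparisons, which share none either.

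The differences of the cilium genes leaned below 0 while staying small. Under DMSO 29 of 38 (76.3%) were lower in *ahr-1(ju145)*, with a median log2 difference of −0.10, where 44.7% of all probe sets were lower and their median was 0.02. Under curcumin 24 of 38 (63.2%) were lower in *ahr-1(ju145)*, with a median of −0.06, against 46.4% and 0.01 for all probe sets. Curcumin in wild-type had 28 of 38 (73.7%) lower with a median of −0.08, and curcumin in *ahr-1(ju145)* had 22 of 38 (57.9%) lower with a median of −0.05, where 50.4% and 51.9% of all probe sets were lower. These shares describe 38 genes measured on the same arrays, and genes are not independent replicates. Each genotype comparison also shares a group of arrays with each curcumin comparison. In the fit, curcumin-treated *ahr-1(ju145)* lacks replicate 5, while the groups set against it hold theirs. With all 20 arrays the median was −0.04 for genotype under curcumin and −0.03 for curcumin in *ahr-1(ju145)*. With the replicate number as a block these medians were −0.01 and −0.03.

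**Figure D1:**
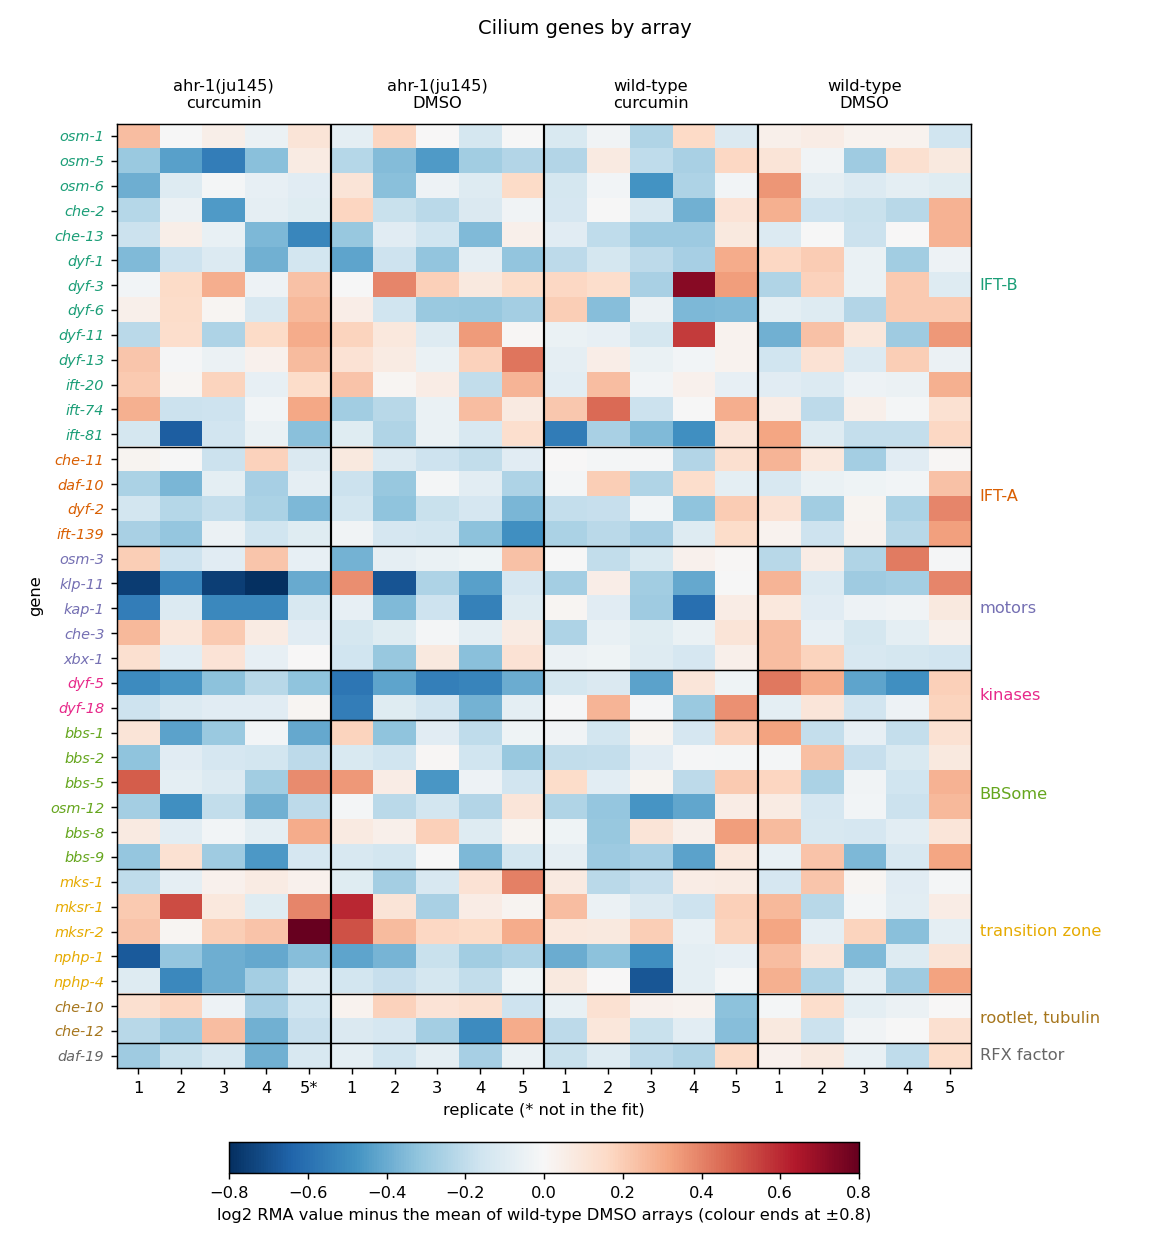
Log2 RMA value of each of the 38 cilium genes (rows, grouped by role) on each of the 20 arrays (columns), minus the gene's mean over the 5 wild-type DMSO arrays. Blue is lower and red higher on a scale that ends at ±0.8, the asterisk marks the array outside the fit, and the deepest blue is that of *klp-11* in curcumin-treated *ahr-1(ju145)*.

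How much the arrays could have shown follows from their spread. The within-group SD of a cilium gene ranged from 0.12 for *che-3* to 0.29 for *klp-11* on the log2 scale, with a median of 0.18, the same to 2 decimals as over all probe sets. The 95% interval of a difference was on median ±0.24 under DMSO and ±0.25 under curcumin between genotypes, ±0.24 and ±0.25 for curcumin in wild-type and the mutant, and ±0.35 for the interaction. A difference of 1.5-fold or more lay outside the interval of 37, 36, 37, 37 and 33 of the 38 genes in the 5 comparisons, and one of 2-fold or more outside the interval of 38 in all 5. The genes whose interval reached past 1.5-fold were *dyf-5* under DMSO, *klp-11* and *dyf-5* under curcumin, *ift-81* for curcumin in wild-type, *klp-11* for curcumin in *ahr-1(ju145)*, and *dyf-3*, *dyf-6*, *dyf-11*, *klp-11* and *dyf-5* for the interaction. On the arrays 27 of the 38 genes (71.1%) had a mean signal below 4.25, the median of all probe sets, and the means ran between 2.78 and 8.35. Since the signal of a probe set depends on its probes, this does not rank the genes by their RNA.

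**Figure D2:**
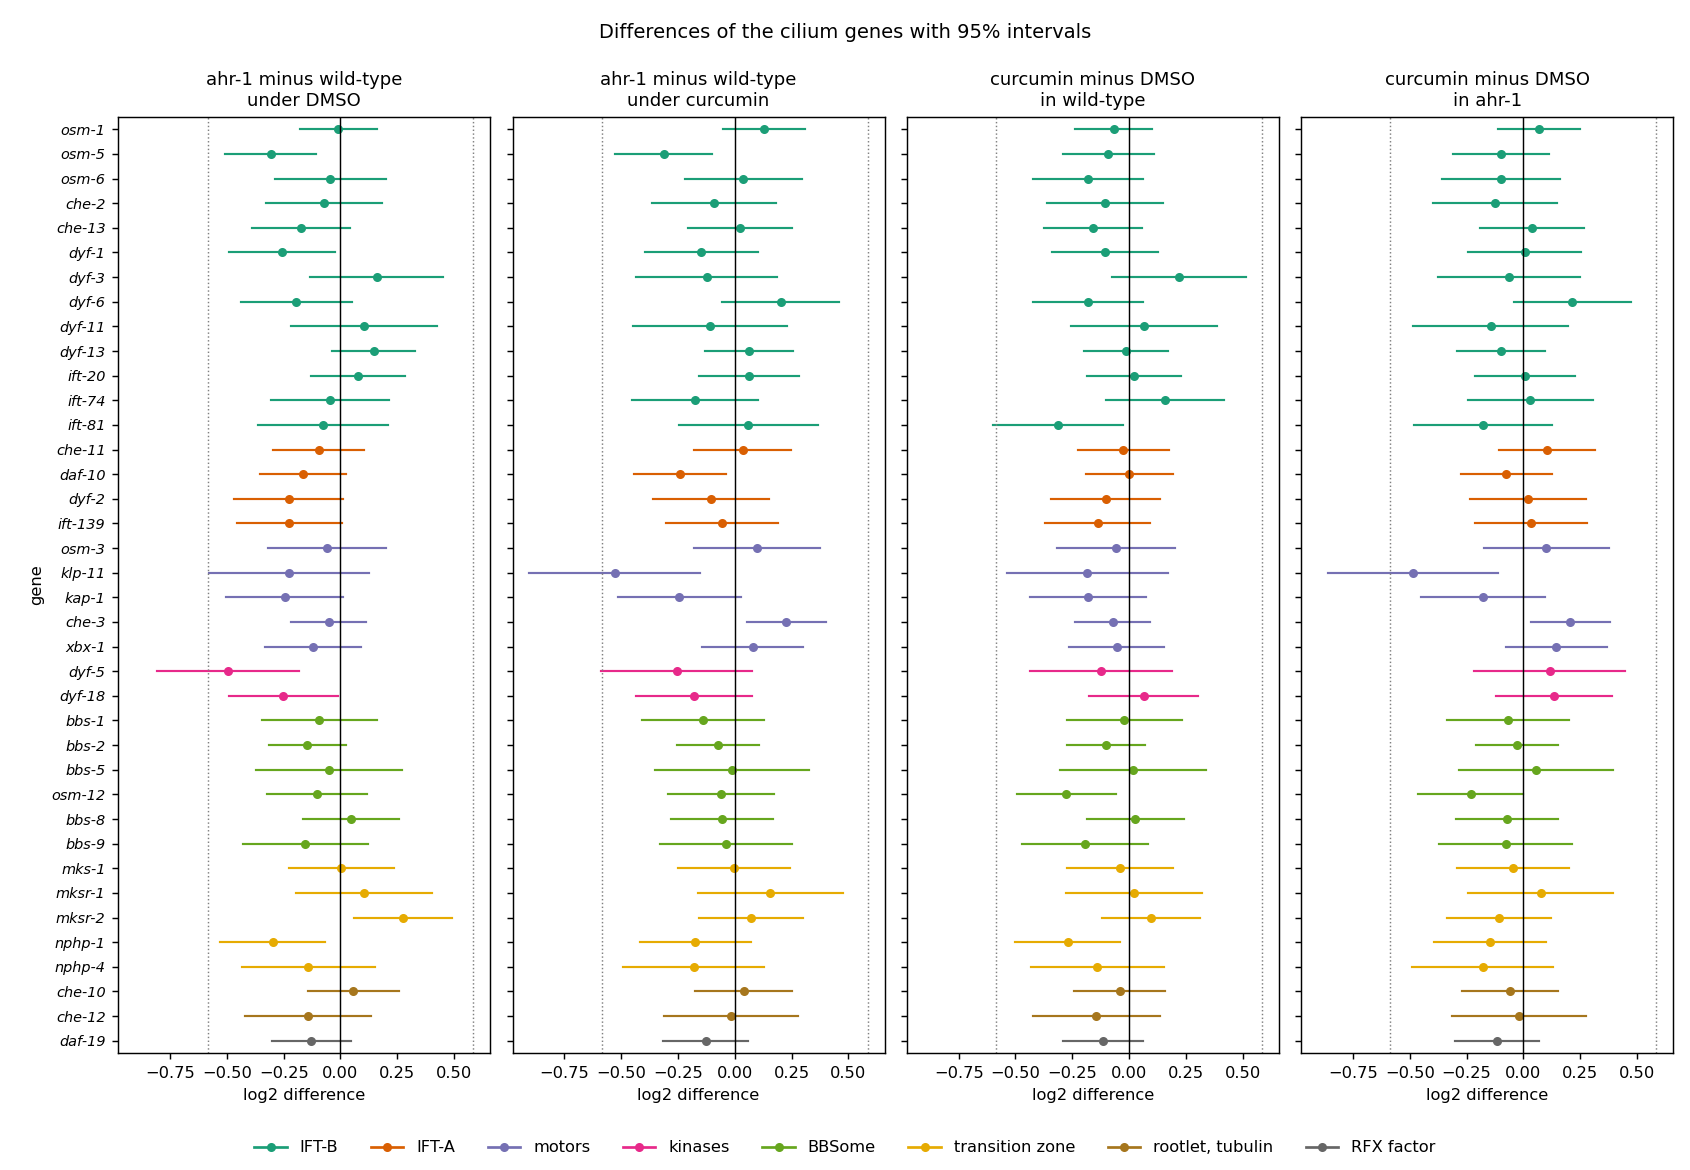
Log2 difference (x axis) of each of the 38 cilium genes (y axis, coloured by role) in the 4 pairwise comparisons, with its 95% interval; the dotted lines mark 1.5-fold. Intervals that do not hold 0 number 6, 4, 3 and 2 from left to right, and none of them belongs to a gene that passed the adjusted test.

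The IFT-B particle, the larger train complex that moves toward the tip, was measured by 13 genes. Under DMSO 9 of the 13 were lower in *ahr-1(ju145)*, with a median log2 difference of −0.05 and a range of −0.31 to 0.16. Under curcumin 6 were lower and 7 higher, with a median of 0.02 and a range of −0.31 to 0.20. One gene, *osm-5*, which encodes the worm counterpart of mammalian IFT88, sat at the low end of both ranges. Its values were 3.95, 3.83, 3.72, 3.90 and 3.94 on the arrays of replicates 1 to 5 of DMSO-treated *ahr-1(ju145)*, against 4.28, 4.15, 3.90, 4.31 and 4.26 in DMSO-treated wild-type. Of the wild-type arrays only replicate 3 reached into the mutant range. The log2 difference was −0.31 ± 0.10 (SE), with a 95% interval of −0.51 to −0.11 and an adjusted p of 0.164 in limma. Same-numbered arrays of these groups deviate together, and with the replicate number as a block the adjusted p of *osm-5* was 0.0675, so that 1 of 38 cilium genes fell in *ahr-1(ju145)* under DMSO in that fit, while 931 of all probe sets passed with the block and 530 without it.

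With curcumin, *osm-5* read 3.88, 3.74, 3.63 and 3.84 on the 4 mutant arrays of the fit, against 3.94, 4.25, 3.98, 3.92 and 4.34 in wild-type. All 4 mutant arrays were below all 5 wild-type arrays, and the array left out for quality read 4.25, inside the wild-type range. The difference was −0.31 ± 0.10 with an adjusted p of 0.263, and with all 20 arrays it was −0.22 with an adjusted p of 0.579. Groups that do not overlap in either direction occurred in 2 of 38 cilium genes in this comparison, *osm-5* and *klp-11*, and in 3.14% of all probe sets. In the other comparisons 0 of 38 had groups without overlap, against 3.11% of all probe sets for genotype under DMSO, 0.999% for curcumin in wild-type and 2.51% for curcumin in *ahr-1(ju145)*. Curcumin left *osm-5* with differences of −0.09 (95% interval −0.29 to 0.11) in wild-type and −0.10 (−0.31 to 0.12) in *ahr-1(ju145)*.

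Among the other IFT-B genes, *dyf-1*, whose product is needed to load the OSM-3 kinesin, differed by −0.26 between *ahr-1(ju145)* and wild-type under DMSO (unadjusted p = 0.0322 in limma) and by −0.15 under curcumin. *ift-81* is one of the tubulin-binding subunits in other organisms. It read 3.52, 3.82, 3.72, 3.58 and 4.18 in curcumin-treated wild-type, against 4.40, 3.98, 3.88, 3.89 and 4.24 with DMSO. Of the curcumin arrays, 4 were below every DMSO array, and replicate 5 was not. The difference was −0.31 ± 0.14 (95% interval −0.60 to −0.03, adjusted p = 0.729), and in *ahr-1(ju145)* it was −0.18, where 1 of the 4 curcumin arrays, replicate 2 at 3.42, stood below the others at 3.92 to 4.02.

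Of the other IFT-B genes needed for dye filling, *dyf-6* had the largest interaction of the 38 genes, and *dyf-3* the largest positive difference for curcumin in wild-type. *dyf-6* read 3.39, 3.49, 3.36 and 3.22 in curcumin-treated *ahr-1(ju145)*, against 3.40, 3.18, 3.05, 3.04 and 3.07 with DMSO. In wild-type it read 3.54, 3.00, 3.30, 2.98 and 2.99 with curcumin, against 3.26, 3.24, 3.11, 3.55 and 3.55 with DMSO. The curcumin arrays thus lay mostly high in the mutant and mostly low in wild-type, with overlap in both. The interaction was 0.40 ± 0.17 on the log2 scale (95% interval 0.04 to 0.75, unadjusted p = 0.0304, adjusted p = 1). For *dyf-3* the values were 6.38, 6.35, 5.95, 6.94 and 6.55 in curcumin-treated wild-type, against 5.97, 6.40, 6.16, 6.42 and 6.11 with DMSO, a difference of 0.22 ± 0.14 (adjusted p = 0.872) that was 0.09 without the array at 6.94. In the mutant *dyf-3* read 6.19, 6.36, 6.50 and 6.17 with curcumin, against 6.21, 6.60, 6.40, 6.29 and 6.36 with DMSO, and its interaction was −0.28 (95% interval −0.71 to 0.15). The remaining 8 IFT-B genes, *osm-1*, *osm-6*, *che-2*, *che-13*, *dyf-11*, *dyf-13*, *ift-20* and *ift-74*, had differences between −0.18 and 0.16 in the 4 pairwise comparisons, and none of them had an unadjusted p under 0.05.

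The IFT-A particle serves the way back and the entry of membrane proteins. All 4 measured IFT-A genes, *che-11*, *daf-10*, *dyf-2* and *ift-139*, were lower in *ahr-1(ju145)* under DMSO, with log2 differences of −0.23 to −0.10 and a median of −0.20, and none passed the test (smallest adjusted p = 0.461). Under curcumin 3 of 4 were lower, with a median of −0.08. The gene *daf-10*, the counterpart of IFT122, read 3.27, 3.16, 3.45 and 3.26 in curcumin-treated *ahr-1(ju145)*, against 3.51, 3.72, 3.29, 3.67 and 3.45 in curcumin-treated wild-type. Of the mutant arrays, 3 were below every wild-type array. The difference of −0.24 ± 0.10 (95% interval −0.44 to −0.04) had an adjusted p of 0.428. With DMSO *daf-10* read 3.36, 3.22, 3.51, 3.44 and 3.28 in the mutant and 3.40, 3.47, 3.49, 3.50 and 3.76 in wild-type, a difference of −0.16 (adjusted p = 0.534). Between curcumin and DMSO the medians of the 4 genes were −0.06 in wild-type and 0.03 in the mutant.

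Of the motors, *osm-3* encodes the homodimeric kinesin that extends the distal segment, *klp-11* and *kap-1* a motor subunit and the accessory subunit of heterotrimeric kinesin-II, *che-3* the dynein heavy chain of the return trip, and *xbx-1* its light intermediate chain. All 5 were lower in *ahr-1(ju145)* under DMSO, with log2 differences of −0.25 to −0.05 and adjusted p between 0.474 and 0.919. Under curcumin they parted, with 2 lower and 3 higher in the mutant. The extremes were *klp-11* at −0.53 and *che-3* at 0.23.

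*klp-11* read 5.22, 5.45, 5.22 and 5.17 in curcumin-treated *ahr-1(ju145)*, against 5.70, 6.03, 5.70, 5.57 and 5.97 in curcumin-treated wild-type. The 4 mutant arrays did not overlap the 5 wild-type arrays, and the array outside the fit, at 5.57, sat just above the lowest of these. With DMSO the gene read 6.35, 5.29, 5.73, 5.54 and 5.84 in *ahr-1(ju145)* and 6.25, 5.87, 5.69, 5.70 and 6.37 in wild-type, groups that overlapped widely. The genotype difference under curcumin was −0.53 ± 0.18 (95% interval −0.90 to −0.15, adjusted p = 0.295), and that of curcumin in *ahr-1(ju145)* was −0.49 ± 0.18 (95% interval −0.86 to −0.11, adjusted p = 0.58), and both rest on the same 4 mutant arrays. When the level of 32 embryonic genes, a level that itself differed between groups, entered the fit as a covariate, these differences were −0.20 and −0.16. Its partner *kap-1* had differences of −0.25 and −0.24 between genotypes under DMSO and under curcumin and of −0.18 for curcumin in either genotype, each with an unadjusted p above 0.05. For the interaction of *klp-11* the estimate was −0.30 with an interval of −0.82 to 0.21, so a difference between the responses of the genotypes was not resolved.

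In curcumin-treated *ahr-1(ju145)* *che-3* read 4.44, 4.27, 4.39 and 4.24, against 4.04, 4.08, 4.17, 4.10 and 4.25 with DMSO. It read 3.93, 4.12, 4.08, 4.12 and 4.28 in curcumin-treated wild-type, against 4.42, 4.11, 4.04, 4.10 and 4.22 with DMSO. Of the 4 curcumin arrays of the mutant, 3 were above all its DMSO arrays, while the array outside the fit read 4.09. The difference of curcumin in *ahr-1(ju145)* was 0.21 ± 0.08 (adjusted p = 0.617), the genotype difference under curcumin, from the same 4 arrays, was 0.23 ± 0.08 (adjusted p = 0.361), and the interaction was 0.28 ± 0.11 (95% interval 0.04 to 0.52, unadjusted p = 0.0259, adjusted p = 1). With all 20 arrays these were 0.16, 0.18 and 0.23 (unadjusted p = 0.0718, 0.0445 and 0.0653 in limma). Under DMSO and in wild-type the gene differed by −0.05 and −0.07. *xbx-1* read 3.12, 2.92, 3.11 and 2.93 in curcumin-treated *ahr-1(ju145)*, against 2.84, 2.70, 3.07, 2.66 and 3.11 with DMSO, and 2.95, 2.96, 2.90, 2.87 and 3.04 in curcumin-treated wild-type, against 3.24, 3.17, 2.87, 2.86 and 2.84 with DMSO. These ranges overlap, and the interaction of *xbx-1* was 0.20 (95% interval −0.11 to 0.51).

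*osm-3* had the flattest record of the motors. It read 4.31, 3.95, 4.03 and 4.34 in curcumin-treated *ahr-1(ju145)*, against 3.74, 4.04, 4.06, 4.08 and 4.35 with DMSO. In wild-type it read 4.11, 3.92, 4.00, 4.15 and 4.12 with curcumin, against 3.89, 4.17, 3.87, 4.53 and 4.11 with DMSO. The 4 ranges overlap one another, and the pairwise differences were −0.06 for genotype under DMSO, 0.10 under curcumin, −0.06 for curcumin in wild-type and 0.10 for curcumin in the mutant, with 95% intervals that stay within −0.32 and 0.38.

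The widest difference under DMSO belonged to the kinase gene *dyf-5*, a MAK-family kinase that restrains the length of cilia. It read 3.60, 3.76, 3.64, 3.65 and 3.78 in DMSO-treated *ahr-1(ju145)*, against 4.61, 4.48, 3.76, 3.69 and 4.38 in DMSO-treated wild-type. The wild-type arrays fell into a high set of 3 and a low set of 2, replicates 3 and 4, and the low ones lay inside the mutant range. The difference was −0.50 ± 0.15 (95% interval −0.81 to −0.18) with an adjusted p of 0.143 in limma, and 0.124 with the replicate block. Without wild-type replicate 3 it was −0.60 (adjusted p = 0.0632), and without wild-type replicate 4 it was −0.62 (adjusted p = 0.04). With curcumin *dyf-5* read 3.68, 3.72, 3.86 and 3.96 in *ahr-1(ju145)* and 4.04, 4.06, 3.76, 4.28 and 4.15 in wild-type, a difference of −0.25 ± 0.16 (95% interval −0.59 to 0.08, adjusted p = 0.696). The spread of *dyf-5* between the 5 wild-type DMSO arrays, an SD of 0.42, exceeded that of the 5 mutant DMSO arrays, an SD of 0.08. The related *dyf-18*, a CCRK-like kinase that acts with DYF-5, differed by −0.25 under DMSO (unadjusted p = 0.0417) and by −0.18 under curcumin.

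**Figure D3:**
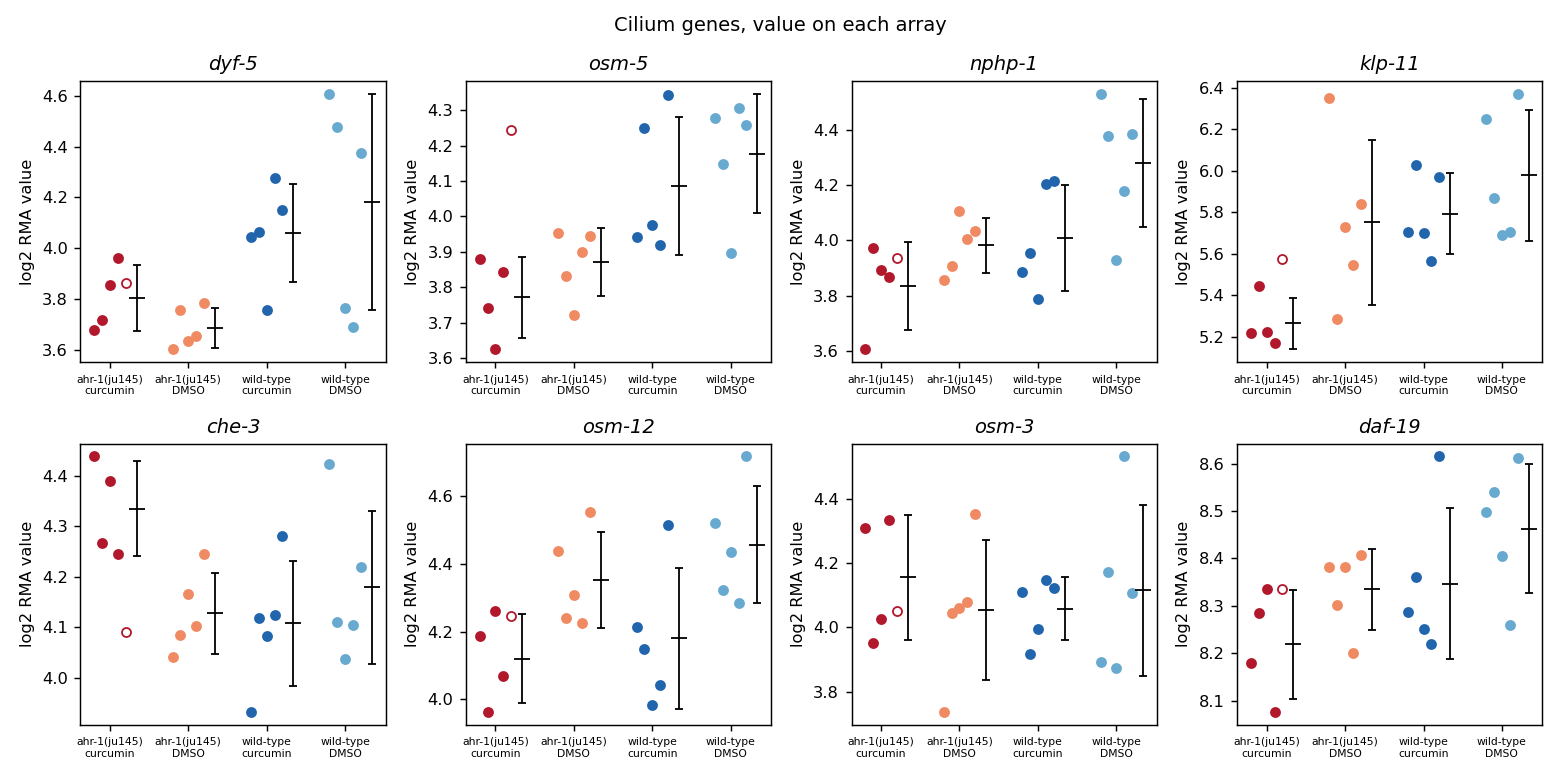
Log2 RMA value (y axis) of 8 cilium genes on each array, with the mean and SD of the arrays in the fit beside each group; arrays stand in order of replicate number and the open circle is the array outside the fit. The wild-type DMSO values of *dyf-5* range between 3.69 and 4.61, the mutant DMSO values between 3.60 and 3.78, and *osm-5* and *klp-11* separate the curcumin groups only without the open circle.

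The BBSome is a protein coat that connects membrane proteins to the trains, and 6 of its genes were measured (*bbs-1*, *bbs-2*, *bbs-5*, *osm-12*, *bbs-8* and *bbs-9*). Between *ahr-1(ju145)* and wild-type, 5 of 6 were lower under DMSO with a median of −0.10 and a range of −0.16 to 0.05, and 6 of 6 were lower under curcumin with a median of −0.06 and a range of −0.14 to −0.01. None had an unadjusted p under 0.05 in either. Curcumin against DMSO gave medians of −0.06 in wild-type and −0.07 in the mutant, and *osm-12*, the worm BBS7, was lowest in both. It read 4.21, 4.15, 3.98, 4.04 and 4.51 in curcumin-treated wild-type, against 4.52, 4.32, 4.44, 4.28 and 4.72 with DMSO. Of the 5 curcumin arrays, 4 lay below all DMSO arrays. In the mutant it read 4.19, 3.96, 4.26 and 4.07 with curcumin, against 4.44, 4.24, 4.31, 4.22 and 4.55 with DMSO, and there 3 of the 4 curcumin arrays lay below all DMSO arrays. The differences were −0.28 ± 0.10 in wild-type (95% interval −0.50 to −0.06, adjusted p = 0.651) and −0.23 ± 0.11 in *ahr-1(ju145)* (95% interval −0.47 to 0.0002, adjusted p = 0.665), and the interaction was 0.04 (95% interval −0.28 to 0.36). With the embryonic genes as a covariate the differences of *osm-12* were −0.16 in wild-type and −0.06 in the mutant.

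Transition zone genes showed no shared direction. Of the 5 measured, *mks-1*, *mksr-1*, *mksr-2*, *nphp-1* and *nphp-4*, 2 were lower and 3 higher in *ahr-1(ju145)* under DMSO, with the 2 genes of smallest p pointing opposite ways. *nphp-1*, the worm nephrocystin-1, read 3.86, 3.91, 4.11, 4.01 and 4.03 in DMSO-treated *ahr-1(ju145)*, against 4.53, 4.38, 3.93, 4.18 and 4.38 in wild-type. Of the wild-type arrays only replicate 3 fell into the mutant range. The difference was −0.30 ± 0.11 (95% interval −0.53 to −0.07, adjusted p = 0.273), and without wild-type replicate 3 it was −0.39 (adjusted p = 0.0974). With curcumin *nphp-1* read 3.61, 3.97, 3.89 and 3.87 in the mutant and 3.89, 3.96, 3.79, 4.20 and 4.22 in wild-type. The genotype difference there was −0.17 (adjusted p = 0.73), and curcumin in wild-type gave −0.27 ± 0.11 (adjusted p = 0.698), from the same wild-type DMSO arrays.

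*mksr-2*, which encodes a B9-domain protein of the MKS module, read 3.96, 3.70, 3.62, 3.61 and 3.75 in DMSO-treated *ahr-1(ju145)*, against 3.76, 3.38, 3.63, 3.11 and 3.37 in wild-type. Of the wild-type arrays, 3 lay below every mutant array, and the other 2 lay among them. The difference was 0.28 ± 0.10 (95% interval 0.06 to 0.49, adjusted p = 0.282). With curcumin the gene read 3.68, 3.47, 3.65 and 3.68 in the mutant and 3.53, 3.53, 3.65, 3.39 and 3.63 in wild-type, a difference of 0.07, and the array outside the fit read 4.32, above all others of the series for this gene. *nphp-4* and *mks-1* had differences of −0.14 and 0.0036 under DMSO and of −0.18 and −0.0024 under curcumin, while *mksr-1* had 0.10 and 0.16.

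The last 3 genes are *che-10*, the worm rootletin, *che-12*, which encodes a TOG-domain protein of the axoneme, and *daf-19*. The last encodes the RFX factor shared by most of the genes described here. *che-10* and *che-12* differed by 0.06 and −0.14 between genotypes under DMSO and by 0.04 and −0.02 under curcumin, with no unadjusted p under 0.05. *daf-19* read 8.18, 8.28, 8.33 and 8.08 in curcumin-treated *ahr-1(ju145)*, against 8.29, 8.36, 8.25, 8.22 and 8.62 in curcumin-treated wild-type. With DMSO it read 8.38, 8.30, 8.38, 8.20 and 8.41 in the mutant, against 8.50, 8.54, 8.40, 8.26 and 8.61 in wild-type. The groups overlapped in each case. The 4 pairwise differences of *daf-19* were nearly alike, −0.13 for genotype under either treatment and −0.12 for curcumin in either genotype, each with an SE of 0.08 or 0.09 and an adjusted p between 0.626 and 0.909. With the embryonic genes as a covariate each lay between −0.03 and 0.03. Its interaction was 0.0002 (95% interval −0.26 to 0.26). The probe set covers *daf-19* as a gene and does not tell its isoforms apart.

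Since the genotype comparisons under DMSO and under curcumin use different arrays, their values may be set side by side. Of the 38 cilium genes, 25 (65.8%) had the same sign in both, 20 of them lower and 5 higher, where 63% of all probe sets had the same sign. The curcumin comparisons in the 2 genotypes, which also use different arrays, gave the same sign in 22 genes (57.9%), 17 lower and 5 higher, against 58.8% of all probe sets. Both shares were close to the background.

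The arrays of a group differed from one another in a way that ran through many cilium genes at once. In replicate 5 of wild-type, 31 of 38 genes with curcumin and 28 of 38 with DMSO were above the mean of their own group, and the median gene stood 0.16 and 0.12 above it. Replicate 5 of DMSO-treated *ahr-1(ju145)* stood 0.07 above, and the array outside the fit, replicate 5 of curcumin-treated *ahr-1(ju145)*, 0.10. In wild-type with DMSO, replicates 3 and 4 had 7 of 38 genes each above the group mean. The median of the 38 genes relative to the wild-type DMSO mean lay between −0.16 and −0.10 in curcumin-treated *ahr-1(ju145)*, between −0.16 and −0.03 in DMSO-treated *ahr-1(ju145)*, between −0.17 and 0.07 in curcumin-treated wild-type and between −0.09 and 0.12 in DMSO-treated wild-type. The highest array of curcumin-treated *ahr-1(ju145)*, at −0.098, lay just below the lowest of DMSO-treated wild-type, at −0.091. These groups differ in both genotype and treatment, and the other pairs of groups overlapped. Between arrays of a group the median of the 38 genes had an SD of 0.09, far wider than that gap.

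Markers of other stages and tissues moved between the same arrays. A list of 32 embryonic genes stood 0.20 above its group mean in replicate 5 and 0.21 below it in replicate 3 of curcumin-treated wild-type, and 20 genes of molting and the apical matrix stood 0.54 above and 0.59 below. Relative to the wild-type DMSO mean, the embryonic list lay between −0.30 and −0.21 in curcumin-treated *ahr-1(ju145)*, between −0.28 and 0.02 in DMSO-treated *ahr-1(ju145)*, between −0.37 and 0.09 in curcumin-treated wild-type and between −0.17 and 0.18 in DMSO-treated wild-type. For the molting list the ranges were −1.16 to −0.89, −0.97 to −0.56, −0.86 to 0.20 and −0.18 to 0.33 in the same groups. Of the molting list, 11 of 20 genes fell in *ahr-1(ju145)* under DMSO and 5 of 20 under curcumin. Of the embryonic list, 4 of 32 fell and 1 rose under DMSO, and 3 fell under curcumin. Among all probe sets 1.81% passed under DMSO and 0.553% under curcumin. The lists were chosen with earlier results of these data known, so their counts are not independent evidence of a change. Of 14 eggshell and oocyte genes, 0 passed in either genotype comparison. In *ahr-1(ju145)* 13 of them were higher under DMSO (median 0.06) and 11 under curcumin (median 0.03). Of 12 sperm genes 0 passed, with medians of −0.05 and 0.0089. When the embryonic list entered the fit as a covariate, the median of the cilium genes was −0.01 and 0.02 between genotypes under DMSO and under curcumin. For curcumin in wild-type and the mutant it was −0.03 and 0.06. The embryonic list itself differed between groups, so the covariate can also take out part of a group difference. With it *klp-11*, *osm-12* and *daf-19* came closer to 0. Over the alternatives other than left-out arrays, the covariate among them, some genes under DMSO kept their distance. There *dyf-5*, *osm-5* and *nphp-1* reached no higher than −0.35, −0.24 and −0.22, and *mksr-2* no lower than 0.25. Whether stage or embryo content sets the lean of the cilium genes was not tested.

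**Figure D4:**
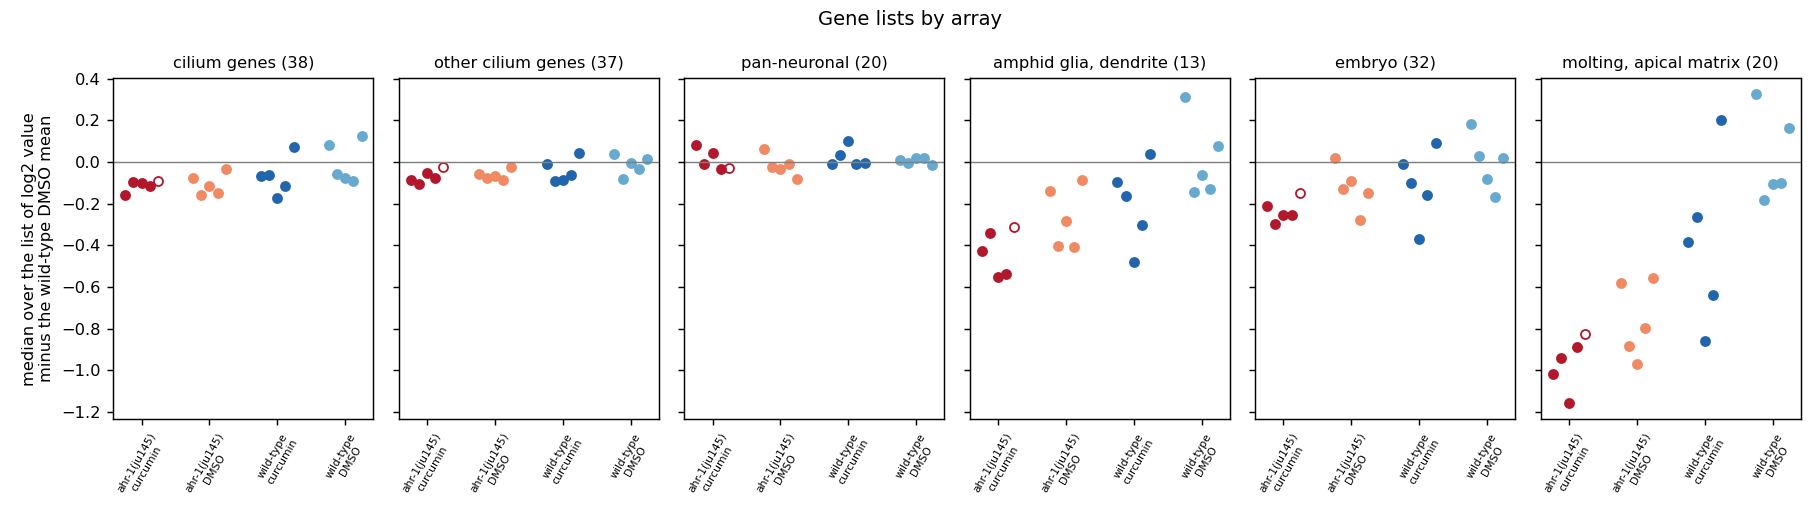
Median over 6 gene lists (panels, with the number of genes) of the log2 value on each array minus the mean of the wild-type DMSO arrays; the open circle is the array outside the fit. The 38 cilium genes stay between −0.17 and 0.12, the pan-neuronal list between −0.08 and 0.10, and the molting list reaches down to −1.16.

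The pan-neuronal list had medians near 0. Of 20 pan-neuronal genes 0 passed in any comparison, with medians of −0.02 and 0.0041 between *ahr-1(ju145)* and wild-type under DMSO and under curcumin. The 22 genes of signalling inside cilia (channels, cyclases and receptors) also had 0 calls, with medians of −0.01 and 0.06. A list of 37 further ciliary genes had medians of −0.07 and −0.04, and 1 of its genes passed, *tbb-4*, a beta-tubulin of ciliated neurons. *tbb-4* averaged 4.47 ± 0.12 in DMSO-treated *ahr-1(ju145)* and 4.92 ± 0.22 in DMSO-treated wild-type (SD, n = 5 each), and fell in the mutant by 0.45 ± 0.10 on the log2 scale (SE, adjusted p = 0.0357). Under curcumin it differed by −0.21 (95% interval −0.43 to 0.0015, adjusted p = 0.572). With the replicate block, a second gene of that list passed under DMSO, the transition zone gene *tmem-231*, at −0.34 (adjusted p = 0.0424, and 0.137 without the block). Under curcumin *tmem-231* differed by 0.07, in the other direction (95% interval −0.16 to 0.29, adjusted p = 0.921).

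Beside the cilium stand the genes that shape the dendrite and its glia, of which 13 were measured. Of these, 2 fell in *ahr-1(ju145)* under DMSO, where 1.81% of all probe sets passed. This list too was chosen with earlier results of these data known. With the replicate block 4 fell, the others being *vab-3* at −0.52 (adjusted p = 0.0495, and 0.221 without the block) and *mls-2* at −0.35 (adjusted p = 0.0947, and 0.575 without it). *dyf-7* encodes a zona pellucida protein of the matrix that anchors the dendrite tip. It read 6.28, 4.94, 5.83, 5.83 and 6.76 in DMSO-treated *ahr-1(ju145)*, against 7.94, 7.32, 7.26, 6.94 and 7.84 in wild-type, and 4.75, 4.79, 4.71 and 5.34 with curcumin in the mutant, against 6.60, 6.80, 5.72, 6.46 and 7.64 in wild-type. Neither pair of groups overlapped. The differences were −1.53 ± 0.32 (adjusted p = 0.0348) under DMSO and −1.75 ± 0.34 (adjusted p = 0.0422) under curcumin. *dex-1*, whose product acts with DYF-7 at the dendrite tip, fell by 0.69 ± 0.17 on the log2 scale under DMSO (adjusted p = 0.0721) and differed by −0.64 under curcumin (adjusted p = 0.181). The study also chose *dyf-7* from these arrays, as 1 of a set of genes that it then measured by qPCR. It reports that qPCR mostly bore out the dependence of the set on *ahr-1*, and that curcumin had no significant effect. A dye-filling gene by name, *dyf-7* is not a part of the cilium. The intervals of the 13 IFT-B genes under DMSO, none of which reached below −0.51, did not meet its interval of −2.21 to −0.86. Among the cilium genes outside IFT-B, the interval of *dyf-5* reached furthest down, to −0.81, just short of that of *dyf-7*. That of *klp-11* reached −0.58. Since *dyf-7* is named because it passed in these data, its distance from genes not chosen in this way may be overstated.

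The mutated gene *ahr-1* itself averaged 4.57 ± 0.26 in curcumin-treated *ahr-1(ju145)* (n = 4) and 5.00 ± 0.14 in curcumin-treated wild-type (n = 5), and 4.79 ± 0.30 and 5.13 ± 0.21 in the mutant and wild-type with DMSO (SD, n = 5 each). The ranges overlapped and the differences were −0.43 (adjusted p = 0.307) and −0.34 (adjusted p = 0.35). A probe set of a gene with a point mutation need not change, so its level does not check the labels.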

How the data were processed

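Total RNA of whole worms was hybridised to 20 arrays, 5 independent replicates in each of 4 groups, each a pool of worms by the study's methods. The authors made the deposited log2 values with RMA (background correction, quantile normalization and summary of probes, in the oligo package); these are relative signals and were not renormalized. For the genome build of the annotation, the sources used here give none. The authors' tables of called probe sets hold limma fold changes, p-values and scores, and were not used.

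All 29317 probe sets were fitted in limma 3.58.1 (R 4.3.3) with a mean per group over 19 arrays, no filter and moderated variances (15 residual degrees of freedom and 3.3763 prior ones). Each of 5 comparisons was adjusted by Benjamini-Hochberg over all probe sets, and a probe set was called at an adjusted p under 0.1; tests were two-sided. Every cilium gene was matched to its gene number in a RefSeq table (38 of 38 with the same symbol). Array values are given for the 4 genes of smallest p in each comparison, as no gene was called, and for *daf-19*, *osm-3*, *osm-5* and *che-3*. Genes outside the 38 are named only where called, beside *ahr-1*, and not every called one is named; *tmem-231*, *vab-3* and *mls-2* were named after their values had been seen. The genes, the lists and this rule were chosen with earlier results of these data known. Of the genes on the other lists, 3 had no single-symbol probe set. On simulated data with set changes the script was tested first. Precision is limited by the number of arrays.

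Replicate numbers are in the labels, and no source states that they pair the arrays. For genotype under DMSO the deviations of same-numbered arrays correlated at 0.114 to 0.431 in all 5 pairs, above 0.1, so the fit with the replicate block stands beside that comparison. In the other comparisons the lowest same-number correlations were 0.0575 to 0.0843. Their means were 0.162 for genotype under curcumin, 0.247 for curcumin in wild-type and 0.127 for curcumin in the mutant. Arrays of unequal number averaged −0.0402, −0.0616 and −0.0313, so same-numbered arrays deviated together on average there too. Alternatives were all 20 arrays, only the groups compared, the replicate block, median centring, another quantile normalization, array weights, trended and robust variances, a filter on dim probe sets, single-symbol probe sets, a threshold of 0.05, the embryonic list as a covariate and each array left out. The block joined to 2 of these was added after the data had been seen. Other experiments of the study were not analysed here.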

Additional observations from a re-analysis of the deposited data

Results flagged for a closer look

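In 10 of the 152 groups of values tested (38 genes in 4 groups), one array stood apart from the others of its group by Dixon's criterion at the 95% level. Chance alone marks about 1 in 20 groups. In wild-type with DMSO, *osm-1* read 5.21 in replicate 5, below the others at 5.39 to 5.42. There *osm-6* read 3.86 in replicate 1, above the others at 3.39 to 3.43, *ift-20* read 3.02 in replicate 5, above 2.62 to 2.69, and *daf-10* read 3.76 in replicate 5, above 3.40 to 3.50. In wild-type with curcumin, *dyf-1* read 4.92 in replicate 5, above 4.36 to 4.49, *dyf-11* read 4.80 in replicate 4, above 4.10 to 4.27, and *nphp-4* read 3.15 in replicate 3, below 3.75 to 3.91. In *ahr-1(ju145)* with curcumin the arrays apart were all replicate 2, with *ift-81* at 3.42, below 3.92 to 4.02, *kap-1* at 4.33, above 3.89 to 3.93, and *mksr-2* at 3.47, below 3.65 to 3.68. No array of DMSO-treated *ahr-1(ju145)* stood apart. Of the 10 values, 6 were high and 4 low.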

How the results depend on the processing

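Each pairwise result was computed under 32 alternatives, 19 of which left out 1 array, and the interaction under 30, since the compared groups alone give no other fit for it; genes removed by the filter on dim probe sets had 31 and 29. The count of called cilium genes was 0 throughout for genotype under curcumin, for curcumin in *ahr-1(ju145)* and for the interaction. For genotype under DMSO it was 1 (*osm-5*) with the replicate block, and 1 again with the block over all 20 arrays (adjusted p = 0.0883) or over the compared groups alone (0.082). Leaving out single arrays gave counts of 0 to 3: without wild-type DMSO replicate 3 it was 3 (*osm-5* at an adjusted p of 0.0675, *dyf-5* at 0.0632 and *nphp-1* at 0.0974), and without wild-type DMSO replicate 4 it was 1 (*dyf-5* at 0.04). For curcumin in wild-type the count was 1 (*osm-12*) with the replicate block (adjusted p = 0.0826 in limma). It was 1 again with the block over all 20 arrays (0.0931). Here not every same-numbered pair correlated above 0.1, and 219 of all probe sets passed with the block and 42 without. Among the 38 genes the block changed no other call. On other lists it added calls, among them *tmem-231*, *vab-3* and *mls-2* under DMSO. For genotype under curcumin, where not every pair was above 0.1 either, 10 of 20 molting genes passed with the block and 5 without. Of the dendrite and glia genes, 3 of 13 passed with it and 1 without, while over all probe sets the calls rose from 162 to 368. Left-out arrays moved the median of the cilium genes within −0.14 to −0.07 and −0.07 to −0.0057 for genotype under DMSO and under curcumin, −0.11 to −0.05 and −0.06 to −0.0099 for curcumin in wild-type and the mutant, and 0.0072 to 0.09 for the interaction.

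With the embryonic list as a covariate the median for curcumin in *ahr-1(ju145)* was 0.059, and uncalled differences changed sign: *daf-19* and *osm-3* to 0.022 and −0.030 for genotype under curcumin, and *daf-19*, *osm-3* and *osm-5* to 0.033, −0.025 and 0.0054 for curcumin in *ahr-1(ju145)*. Some others near 0 changed sign when an array was left out. *osm-3* under DMSO ranged between −0.14 and 0.044, above 0 without replicate 4 of DMSO-treated wild-type and also (0.019) without replicate 1 of DMSO-treated *ahr-1(ju145)*. *che-3* under DMSO ranged between −0.087 and 0.010, above 0 without wild-type DMSO replicate 1. For curcumin in wild-type *osm-3* ranged between −0.12 and 0.048, above 0 when replicate 4 of the DMSO arrays was missing. The causes were not tested. Over the alternatives other than left-out arrays, the covariate among them, the genes of smallest p between genotypes kept their sign. Under DMSO *dyf-5* ranged from −0.52 to −0.35, *osm-5* from −0.32 to −0.24, *nphp-1* from −0.31 to −0.22 and *mksr-2* from 0.25 to 0.36. Under curcumin *osm-5* ranged from −0.33 to −0.21, *klp-11* from −0.54 to −0.20, *che-3* from 0.18 to 0.29 and *daf-10* from −0.27 to −0.21. A filter on dim probe sets left 11 of the 38 genes, with 0 called. The means of the other 27 genes lay below the median of all probe sets, and signal over background was not measured here.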
